A study of Mus musculus with 27 samples.

Results

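The 34 genes described here mark the layers of the cerebral cortex or its excitatory, glutamate-releasing neurons. They were picked by name, as the rows of the deposited expression table whose symbol, in lower case, is on a list of names (cux1, cux2, rorb, bcl11b, fezf2, tbr1, slc17a7 and so on). The rule reads no measured value, but the list was drawn up with earlier results of these data known. The table held 26264 gene symbols, of which 12976 had a mean of at least 1 FPKM (counted fragments scaled to the length of the gene and to the total of the library) over the 27 libraries used, and all 34 genes were among these. All 34 are protein-coding genes found once in the GENCODE M39 annotation of the mouse genome GRCm39, spread over 14 chromosomes.

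The cortex is built of stacked layers whose excitatory neurons differ in gene expression and in where their axons go. Neurons of layers 2/3 connect cortical areas, layer 4 receives thalamic input, layer 5 projects below the cortex, and layer 6 projects to the thalamus, with layer 6b as the thin sheet above the white matter. Excitatory neurons of the cortex load glutamate into vesicles mainly through VGLUT1 (Slc17a7), whereas thalamic neurons use mainly VGLUT2 (Slc17a6), so the set also reports on how much of each layer or neighbouring region a piece of tissue holds.

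Polyadenylated RNA was sequenced from blocks of cortex of 14 female 5xFAD mice on a C57BL6 background at 16 weeks of age. All mice of all groups carried the 5xFAD transgenes, which model familial Alzheimer's disease, and mice without them were not analysed here. With stereotaxic guidance, R55 (5 mice), R33 (5 mice) or vehicle (4 mice) was injected once into the lateral parietal associative cortex of 1 hemisphere, and cortex of about the same size was taken from both hemispheres 24 h later. R55 and R33 are thiophene thioureas that act as pharmacological chaperones of retromer, a complex that sorts proteins at endosomes. They were given at 10 mM, and the vehicle was the same solution without drug. The contralateral hemisphere was a control for the surgery within the same animal, not tissue from an untreated mouse, and it was there for 13 of the 14 mice, since R33 mouse AE had the injected side only. The comparisons asked whether either drug, or the injection itself, came with a difference in the layer and excitatory neuron genes, and whether the tissue blocks held the same mix of layers. In RNA from whole tissue, fewer cells of a type and less RNA per cell cannot be told apart.

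Libraries held 15932197 to 38077030 counted fragments (median 27441308). The least covered of the 34 genes had 92 fragments in a library and the most covered 79301, and 28 of the 34 had a mean of at least 5 FPKM, so counting error was small beside the spread between libraries for most of them. Levels below are FPKM, which are corrected for gene length and can be compared between genes.

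Among the upper-layer genes, the homeobox factors Cux1 and Cux2 had median levels of 8.19 and 20.4 FPKM. Cux2, at chr5:121994429-122188521 on the minus strand, ranged from 11 to 36.0 FPKM over the libraries, and Cux1 from 5.54 to 14.9 FPKM. Rasgrf2, an exchange factor for Ras, had a median of 26.8 FPKM (14.8 to 40.3), and Otof, the calcium sensor otoferlin, only 1.34 FPKM (0.669 to 3.80). Layer 4 was represented by the orphan nuclear receptor Rorb, at chr19:18907969-19088585 on the minus strand, with a median of 5.54 FPKM (2.03 to 10.4). The sodium channel subunit Scnn1a had 2.66 FPKM (0.691 to 5.05). Rspo1, a secreted protein that strengthens Wnt signalling, had 12.6 FPKM with a wide range (2.11 to 27.6).

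The layer 5 genes spanned the widest range of levels between genes. Pcp4, a regulator of calmodulin, had a median of 267 FPKM (160 to 511), while Deptor, an inhibitor of mTOR, had 3.93 FPKM (2.08 to 5.60). Bcl11b and Fezf2 encode zinc finger factors of neurons that project below the cortex. Bcl11b, at chr12:107876656-107970417 on the minus strand, had a median of 9.75 FPKM (3.32 to 19.9). Fezf2, at chr14:10121574-10127680 on the plus strand, had 14.1 FPKM (5.42 to 26.8). The ETS factor Etv1 had 13.8 FPKM (7.07 to 22.6) and the mucin-like membrane protein gene Parm1 15.5 FPKM (7.17 to 22.4).

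Of the 9 genes of layers 6 and 6b, the T-box factor Tbr1, at chr2:61633274-61644458 on the plus strand, had the highest median with 45.6 FPKM (20.2 to 60.2). Rprm, a membrane protein gene induced by p53, came next with 38.0 FPKM (10.7 to 55.1). The corepressor Tle4 had 12.5 FPKM and varied little (8.58 to 16.5), and the membrane-anchored netrin-G2 gene Ntng2 had 10.2 FPKM (6.66 to 16.3). Cplx3, the complexin of layer 6b, had 7.88 FPKM (3.88 to 13.3). Nr4a2, which encodes the nuclear receptor Nurr1 of layer 6b and the claustrum and is also induced by neuronal activity, had 6.73 FPKM and the widest range of the group (2.06 to 23.4). The secreted semaphorin Sema3e had 5.67 FPKM (1.99 to 13.3), the synaptotagmin Syt6 3.10 FPKM (1.27 to 6.58) and the forkhead factor Foxp2, at chr6:14901287-15441976 on the plus strand, 1.62 FPKM (0.462 to 3.35).

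The next 4 genes are shared by excitatory neurons of all layers. Slc17a7, at chr7:44813305-44825644 on the plus strand, was the most abundant of the set with a median of 530 FPKM (312 to 708). The vesicular zinc transporter gene Slc30a3 had 49.8 FPKM (25.9 to 62.8), and the basic helix-loop-helix factors Neurod2 and Neurod6 had 38.3 FPKM (27 to 53.3) and 40.9 FPKM (20.9 to 98.4). The last 8 genes are used in several layers or outside the cortex. Slc17a6, at chr7:51271434-51320867 on the plus strand, had a median of 7.99 FPKM (3.94 to 25.7). The thalamus-rich netrin-G1 gene Ntng1 had 3.75 FPKM (2.14 to 11.2), and Crym, whose product mu-crystallin binds thyroid hormone, had 35.2 FPKM (6.39 to 122). Mef2c, a transcription factor gene also used in microglia and vessels, had 114 FPKM (52.3 to 154), and the cofactor genes Lmo3 and Lmo4 had 21.0 FPKM (14.8 to 41.6) and 128 FPKM (79.1 to 203). Whrn, which encodes the scaffold protein whirlin, had 12.6 FPKM (7.26 to 16.5), and Plcxd2 had 18.1 FPKM (11 to 27.1).

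These genes varied more between libraries than most genes did. The standard deviation of log2(FPKM + 1) over the 27 libraries had a median of 0.392 over the 34 genes against 0.172 over all 12976 genes, and it was above the latter value for 34 of the 34. The groups ranged from 0.245 for the genes of all excitatory neurons to 0.43 for layer 4. Much of this was variation between the hemispheres of 1 mouse, whose absolute log2 gap had a median of 0.372 over the 34 genes and 0.156 over all genes. A gap of this kind was as large as 1.67 for Slc17a6 in R33 mouse O and 1.79 for Crym in R55 mouse R.

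The contralateral library of R55 mouse R stood apart, with 5 genes at their highest level of all libraries and 13 at their lowest. The 5 highest were all of the upper layers or layer 4. There Cux2 reached 36.0 FPKM, Rasgrf2 40.3 FPKM and Rspo1 27.6 FPKM. The 13 lowest included 5 of the 6 layer 5 genes and 5 of the 9 genes of layers 6 and 6b, with Fezf2 at 5.42 FPKM, Rprm at 10.7 FPKM and Foxp2 at 0.462 FPKM. The mean log2 level of the upper-layer genes minus that of the layer 5 genes was 0.72 in this library, with a median of -0.88 over all libraries and a lowest value of -1.62 in the contralateral library of R55 mouse AA. The mean log2 level of the upper-layer genes alone was 4.06 in this library and next highest, at 3.81, in the injected library of R55 mouse Q. The contralateral library of mouse R also had the highest summed level of 10 endothelial and mural genes, 235 FPKM with a median of 147 FPKM over all libraries. Of lists of further genes, its sums were the highest for the upper layers (431 FPKM) and excitatory neurons (5139 FPKM). They were the lowest for layer 5 (79.9 FPKM) and layers 6 and 6b (44.2 FPKM), with 20.9 FPKM for layer 4 near the median of 19 FPKM. The part of these lists in the values above was not tested. The injected side of the same mouse leaned the same way for fewer genes, with Cux2 at 27.2 FPKM and Fezf2 at 10.5 FPKM.

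Other libraries stood apart as well, some of them in genes of neighbouring regions. The injected library of R33 mouse O had the lowest level of 6 genes, among them Slc17a7 (312 FPKM), Tbr1 (20.2 FPKM) and Mef2c (52.3 FPKM), and the highest Slc17a6 (25.7 FPKM). On its contralateral side Slc17a7 stood at 526 FPKM, Tbr1 at 48.4 FPKM and Slc17a6 at 7.41 FPKM. The same library had the highest summed level of 10 oligodendrocyte genes, 3081 FPKM against a median of 1667 FPKM. In both libraries of vehicle mouse M, Bcl11b, Sema3e, Neurod6 and Lmo3 were above their levels in all other libraries (17.0 and 19.9 FPKM for Bcl11b, 91.2 and 98.4 FPKM for Neurod6), and Fibcd1, a gene of hippocampal field CA1, reached 28.6 and 41.5 FPKM with a median of 4.63 FPKM over all libraries. The contralateral library of vehicle mouse L held the highest level of 7 genes, including Slc17a7 at 708 FPKM and Fezf2 at 26.8 FPKM, and the lowest of 4, Cux1, Scnn1a, Nr4a2 and Slc17a6. Its summed level of the oligodendrocyte genes was the lowest of all libraries, 638 FPKM, and none of its region lists was high.

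Lists of region markers also differed between libraries, and whether the tissue pieces held unequal parts of these regions was not tested. The summed level of 12 hippocampal genes ran from 74.3 to 195 FPKM (vehicle libraries 89.8 to 195, R33 74.3 to 157, R55 82.2 to 152). For 10 striatal genes the sum ran from 78.9 to 489 FPKM (vehicle 84.6 to 318, R33 78.9 to 489, R55 83.0 to 154), with the highest values in the injected libraries of R33 mouse N (489) and vehicle mouse L (318), where the dopamine receptor gene Drd1 had 12.8 and 8.54 FPKM against at most 3.95 FPKM elsewhere. For 9 thalamic genes it ran from 20 to 113 FPKM (vehicle 20.3 to 97.8, R33 20.8 to 48.9, R55 20 to 113), led by the injected libraries of R55 mouse P and vehicle mouse J, where the thalamic factor gene Tcf7l2 had 10.9 and 13.1 FPKM against a median of 1.2 FPKM. Slc17a6 was high in both of them too, at 24.8 FPKM in J and 16.2 FPKM in P. By a mean log2 level more than 0.5 above the median, 11 libraries were high in hippocampal, 4 in striatal and 3 in thalamic genes, 13 libraries in all, and each comparison was repeated without these. That repeat keeps 3 vehicle libraries from 2 mice (L, contralateral, and AH, both sides), 5 R33 and 6 R55 libraries from 4 mice each, with 1 injected library each for vehicle and R33, so its values for vehicle and for the interactions rest on very few samples.

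**Figure D1:**
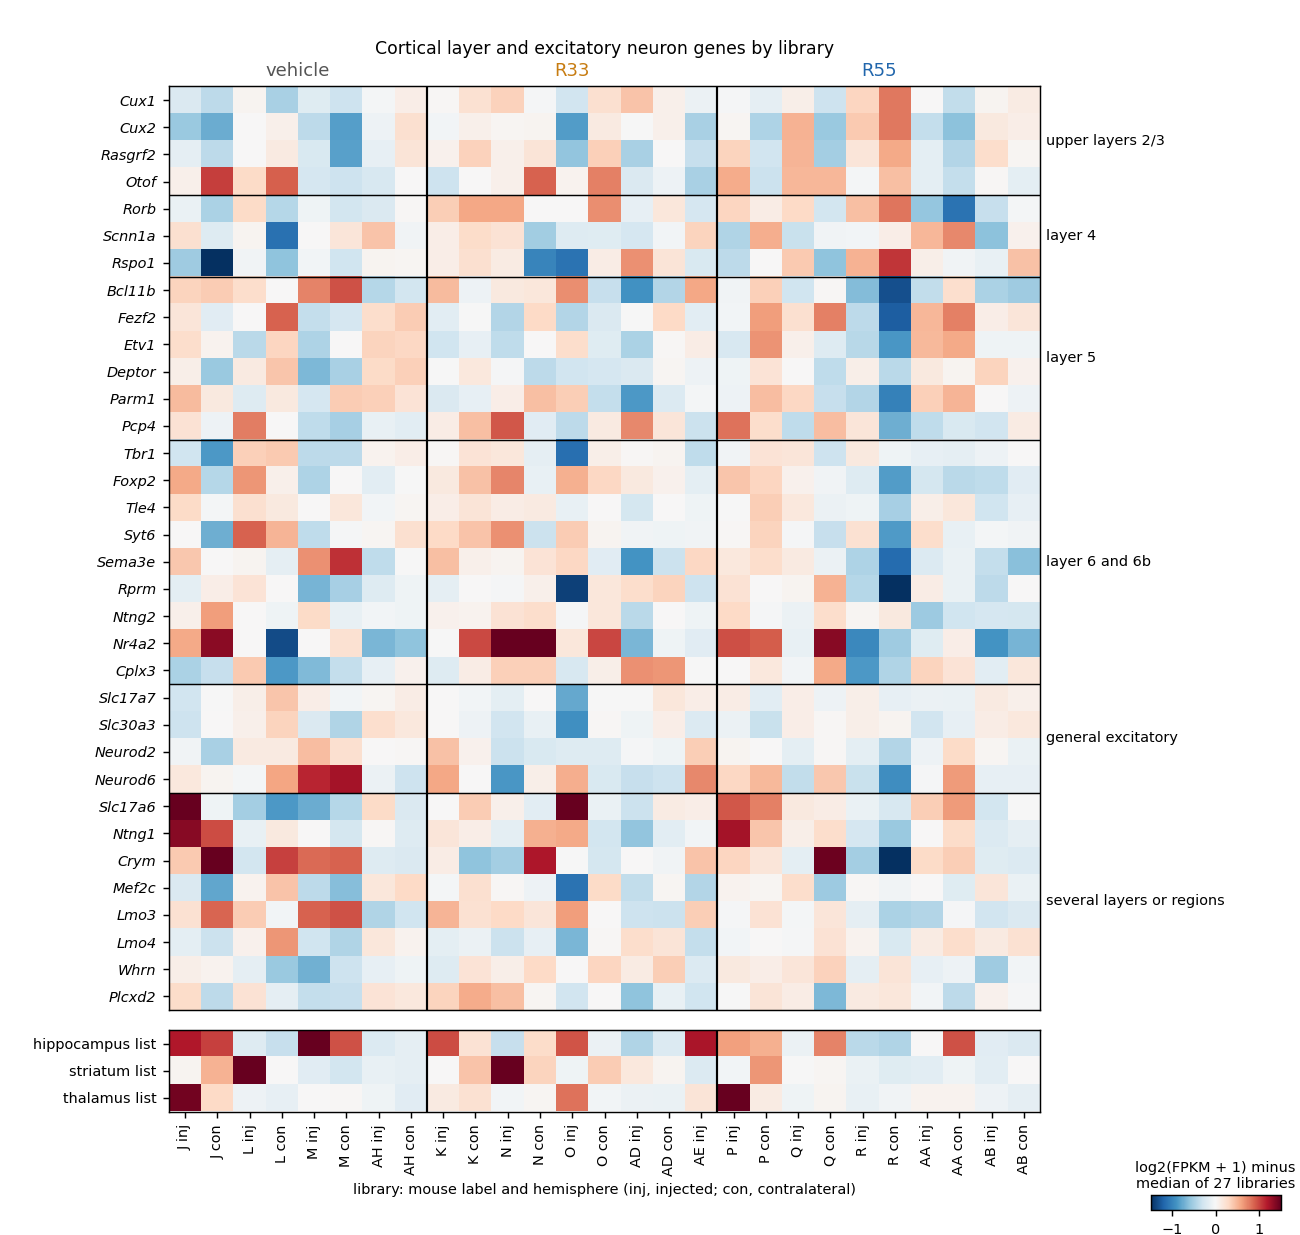
Each row is 1 of the 34 genes, grouped by layer, and each column 1 of the 27 libraries, with mice grouped by treatment (inj, injected; con, contralateral). Colour gives log2(FPKM + 1) minus the gene's median over the 27 libraries, with red above and blue below it, and the 3 lower rows give the mean of the same difference over the hippocampus, striatum and thalamus lists. The column of R55 mouse R, contralateral, is red in the upper-layer and layer 4 rows and blue in most layer 5 and layer 6 rows.

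R55 and vehicle mice did not differ in any of the 34 genes at an adjusted p under 0.05. The fit was limma on log2(FPKM + 1) with treatment and hemisphere as terms, adjusted over all 12976 genes by the Benjamini-Hochberg method, and it called 0.00771% of all genes, 1 gene. At an unadjusted p under 0.05 stood 5 of the 34, 2 higher and 3 lower, with 8.45% of all genes there. Limma voom on the fragments called 0 and placed 4 below that unadjusted threshold. These fits count the hemispheres of 1 mouse as separate. With 1 value per mouse, the 95% intervals of all 5 genes reached 0 (-1.14 to 0.03 for Bcl11b). The median log2 fold change was -0.01 over the 34 genes and 0.03 over all genes, with 17 genes above and 17 below 0. By layer, the median ran from 0.23 for the upper layers and 0.12 for layer 4 to -0.02 for layer 5 and -0.12 for layers 6 and 6b, groups of 3 to 9 genes with 0 called in each. Without R55 mouse R, whose contralateral library was high in upper-layer and low in deep-layer genes, the medians were 0.12 for the upper layers, 0.11 for layer 4, 0.09 for layer 5 and -0.06 for layers 6 and 6b.

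The smallest unadjusted p belonged to the cofactor gene Lmo3. Averaged over the hemispheres, it stood at 32.0, 24.1, 40.6 and 16 FPKM in the vehicle mice J, L, M and AH, and at 22.7, 22.2, 16.9, 18 and 17.5 FPKM in the R55 mice P, Q, R, AA and AB. All R55 mice lay within the range of the vehicle mice, whose spread came from mice M and J above and AH below. Its log2 fold change was -0.44 (SE 0.175, 95% interval -0.80 to -0.08, unadjusted p = 0.0183, adjusted p = 0.554 in limma). Without vehicle mouse M it was -0.24 and without vehicle mouse AH -0.67. It was 0.03 without the 13 libraries high in region markers, a fit that leaves out mice J and M and keeps 2 vehicle mice.

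Bcl11b, the layer 5 factor, had 12.8, 10.8, 18.5 and 7.43 FPKM in the vehicle mice and 11.1, 8.78, 4.59, 9.58 and 6.61 FPKM in the R55 mice, in the same order. The lowest were R55 mice R and AB, below all vehicle mice, and the other 3 overlapped with them. The log2 fold change was -0.55 (SE 0.226, 95% interval -1.02 to -0.09, adjusted p = 0.557 in limma), with -0.35 without vehicle mouse M and -0.38 without R55 mouse R. Sema3e followed with 6.74, 5.49, 11.5 and 4.88 FPKM in vehicle and 6.74, 5.82, 2.91, 4.99 and 3.77 FPKM in R55 mice, again lowest in R and AB. Its log2 fold change was -0.46 (SE 0.200, adjusted p = 0.571 in limma), with -0.32 without R55 mouse R and -0.23 without vehicle mouse M. Both libraries of mouse M, like both of vehicle mouse J, were high in hippocampal markers. For Bcl11b, Sema3e and Lmo3 alike, the highest library of all was the contralateral one of mouse M.

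Rspo1 of layer 4 went the other way, with 5.26, 10, 11.1 and 13 FPKM in vehicle and 11, 12.4, 23.1, 12.7 and 14.5 FPKM in R55 mice. Mouse R was highest and vehicle mouse J lowest, and the groups overlapped. The log2 fold change was 0.58 (SE 0.268, adjusted p = 0.579 in limma) with 0.29 without vehicle mouse J and 0.42 without R55 mouse R. Whrn had 13.3, 9.83, 8.64 and 11.8 FPKM in vehicle and 13.9, 15.3, 13, 11.7 and 10.3 FPKM in R55 mice, with overlap and a log2 fold change of 0.22 (SE 0.107, adjusted p = 0.586 in limma) that ran from 0.13 without vehicle mouse M to 0.32 without vehicle mouse J.

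The genes that define each layer and the glutamate transporters did not pass the test either. Cux2 had a log2 fold change of 0.29 (95% interval -0.10 to 0.67), Rorb 0.12 (-0.27 to 0.51), Fezf2 0.04 (-0.38 to 0.45), Tbr1 0.11 (-0.22 to 0.44) and Foxp2 -0.18 (-0.51 to 0.15). For Slc17a7 the means were 530 ± 27.3 FPKM in R55 mice (SD, n = 5) and 554 ± 64.4 FPKM in vehicle mice (SD, n = 4), with a log2 fold change of -0.06 (95% interval -0.26 to 0.14). Slc17a6 stood at 10 ± 3.49 FPKM and 8.55 ± 5.37 FPKM, a log2 fold change of 0.36 (-0.17 to 0.89). The hippocampal list moved beside these values, with 10 of 10 tested genes lower in R55 than in vehicle libraries (median log2 fold change -0.28, 0 called), and its part in them was not tested.

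**Figure D2:**
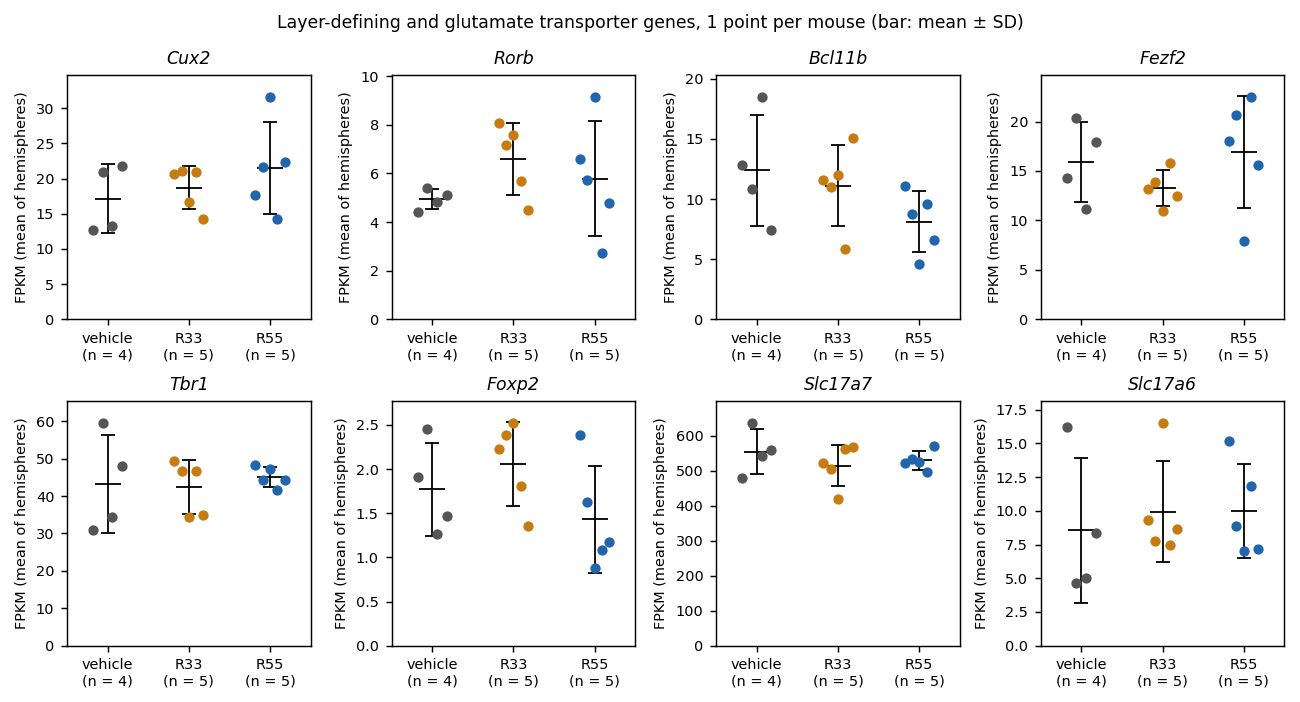
FPKM of 8 layer-defining and glutamate transporter genes, 1 point per mouse (mean of its hemispheres), with the mean and SD of each treatment as bars (vehicle n = 4, R33 n = 5, R55 n = 5). The 3 treatments overlap in all 8 panels, and the R55 point with the highest Cux2 (31.6) and the lowest Fezf2 (7.97) is mouse R.

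R33 was compared with the same vehicle libraries, so the drug comparisons share their controls. None of the 34 genes was called, with 0% of all genes, and 3 stood at an unadjusted p under 0.05, with 5.87% of all genes there. Limma voom also called 0 and placed 3 there. With 1 value per mouse, the 95% interval was 0.01 to 0.58 for Whrn, 0.07 to 0.89 for Cplx3 and -0.01 to 0.55 for Cux1. The median log2 fold change was -0.04 over the 34 genes and 0.02 over all genes, with a median of 0.34 over the 3 layer 4 genes (0.06 without vehicle mouse J) and -0.18 over the 6 layer 5 genes (-0.10 without vehicle mouse AH).

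Whrn had the smallest p. Its values were 12.8, 14.5, 14.3, 15.1 and 10.8 FPKM in the R33 mice K, N, O, AD and AE (AE from its injected side only), 3 of them above all vehicle mice and 2 within their range. The log2 fold change was 0.34 (SE 0.110, 95% interval 0.11 to 0.56, unadjusted p = 0.00454, adjusted p = 0.834 in limma), and the side-by-side value for R55 was 0.22. Cplx3, the layer 6b gene, had 5.69, 7.29, 5.25 and 7.73 FPKM in vehicle mice J, L, M and AH and 7.70, 10.4, 7.50, 13.1 and 7.87 FPKM in the R33 mice. Here 3 of the 5 R33 mice were above all vehicle mice, most of all AD and N, and the log2 fold change was 0.51 (SE 0.178, 95% interval 0.14 to 0.87, adjusted p = 0.834 in limma). Cux1 had 6.46, 6.99, 6.76 and 8.44 FPKM in vehicle and 9.04, 9.40, 8.20, 10.1 and 7.63 FPKM in R33 mice. The groups overlapped through vehicle mouse AH, and the log2 fold change was 0.29 (SE 0.125, adjusted p = 0.834 in limma).

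Rorb and Nr4a2 came next without reaching an unadjusted p of 0.05. Rorb stood at 4.41, 5.4, 4.84 and 5.11 FPKM in vehicle and at 8.09, 7.15, 7.56, 5.67 and 4.51 FPKM in R33 mice, where 4 of 5 were above all vehicle mice (log2 fold change 0.38, 95% interval -0.02 to 0.78). Nr4a2 stood at 14.7, 4.42, 7.39 and 3.96 FPKM in vehicle and at 10.5, 22.1, 11.1, 5.11 and 5.85 FPKM in R33 mice. Mouse N alone was above the vehicle range, the log2 fold change was 0.57 (95% interval -0.19 to 1.33), and it was 0.26 without mouse N and 0.91 without vehicle mouse J. Without the libraries high in region markers it was 1.41 (adjusted p = 0.123 in limma), against 3 vehicle libraries of mice L and AH, with 2.06, 4.10 and 3.82 FPKM. The other defining genes gave 0.17 for Cux2, -0.22 for Bcl11b, -0.20 for Fezf2, 0.01 for Tbr1 and 0.19 for Foxp2. For Slc17a7 the R33 mean was 515 ± 59.5 FPKM (SD, n = 5) with a log2 fold change of -0.13 (95% interval -0.33 to 0.08), and for Slc17a6 it was 9.96 ± 3.76 FPKM (SD, n = 5) with 0.30 (-0.24 to 0.85).

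**Figure D3:**
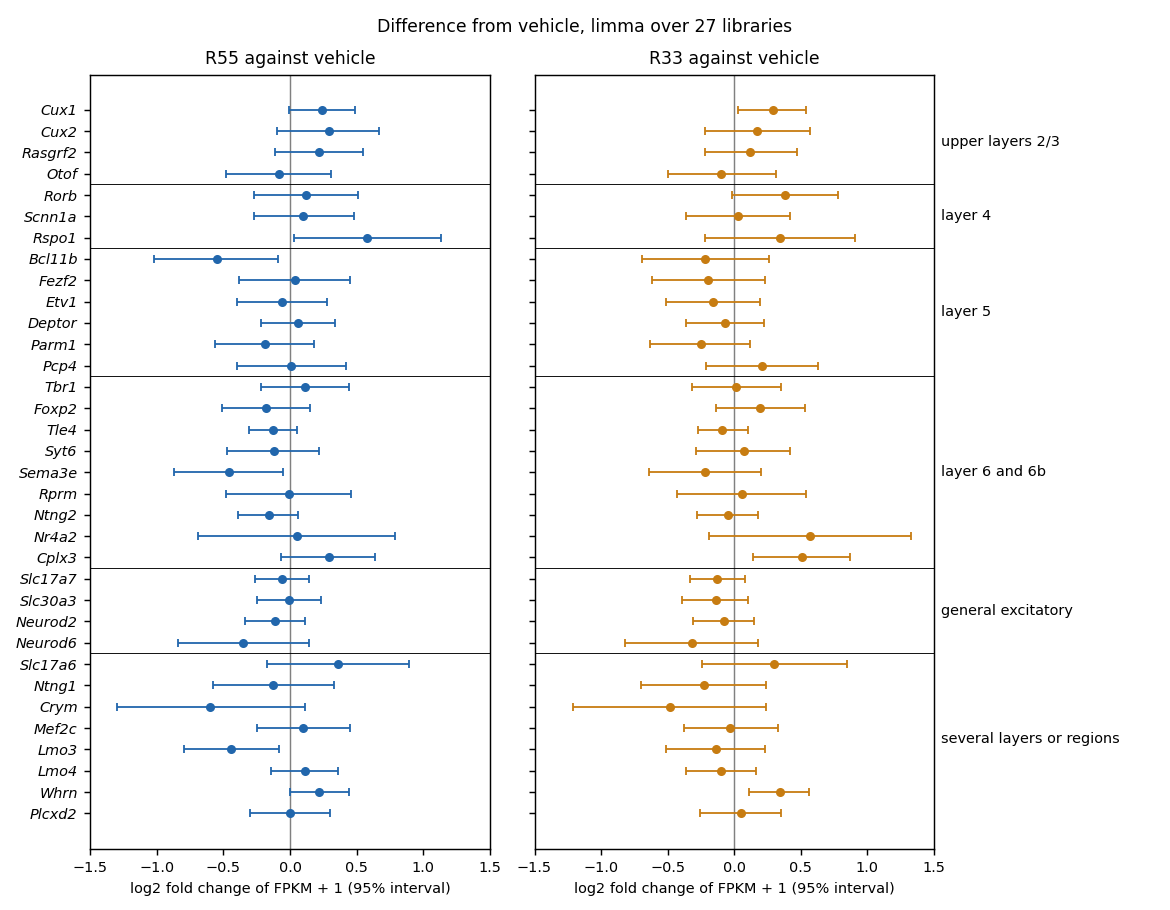
Log2 fold change of FPKM + 1 against vehicle for each of the 34 genes, R55 on the left and R33 on the right, with 95% intervals from limma over 27 libraries. Intervals that leave out 0 belong to Rspo1, Bcl11b, Sema3e, Lmo3 and Whrn for R55 and to Cux1, Cplx3 and Whrn for R33. None of these passes after adjustment over 12976 genes. The fit shown counts the hemispheres of 1 mouse as separate. With 1 value per mouse, only the intervals of Cplx3 and Whrn for R33 leave out 0.

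The 2 compounds were compared with each other at the same dose, time and site. None of the 34 genes was called (0% of all genes), and 1 stood at an unadjusted p under 0.05, with 1.15% of all genes there. Limma voom gave the same counts, 0 and 1. This gene was Foxp2 of layer 6, at 2.39, 1.63, 0.877, 1.08 and 1.17 FPKM in the R55 mice P, Q, R, AA and AB and at 2.23, 2.38, 2.52, 1.81 and 1.36 FPKM in the R33 mice K, N, O, AD and AE. R55 mouse P lay among the highest R33 mice and the rest of the R55 mice were low, with overlap at R33 mouse AE. The log2 fold change of R55 against R33 was -0.37 (SE 0.155, 95% interval -0.69 to -0.06, unadjusted p = 0.0227, adjusted p = 1.0 in limma). It was -0.35 with 1 value per mouse (95% interval -0.69 to 0.00) and -0.29 without R55 mouse R. In limma voom, which adds a smaller constant to low values, it was -0.64.

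Lmo3 (-0.30, 95% interval -0.65 to 0.05), Lmo4 (0.21, -0.04 to 0.45), Bcl11b (-0.34, -0.79 to 0.11) and Nr4a2 (-0.52, -1.23 to 0.20) followed. Of the 9 genes of layers 6 and 6b, 8 had a lower mean with R55 than with R33 (median log2 fold change -0.19, 0 called), and 6 without R55 mouse R (median -0.10), whose contralateral library had the lowest level of 5 of the 9. The median over all 34 was -0.03. The intervals for the defining genes were -0.26 to 0.49 for Cux2 (0.11), -0.63 to 0.12 for Rorb (-0.26), -0.17 to 0.64 for Fezf2 (0.23), -0.22 to 0.41 for Tbr1 (0.10), -0.12 to 0.26 for Slc17a7 (0.07) and -0.45 to 0.58 for Slc17a6 (0.06). Apart from Slc17a7, each of these intervals reaches 0.41 or more away from 0, so the lack of a call does not show that the compounds act alike on these genes. The striatal list was lower with R55 in 10 of 10 genes (median log2 fold change -0.37, 0 called), led by the high injected library of R33 mouse N, and its part in the values was not tested.

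Of 51 further layer and excitatory neuron genes taken from other lists, 0 were called in any of the 3 treatment comparisons, with 1, 0 and 2 at an unadjusted p under 0.05 for R55 against vehicle, R33 against vehicle and R55 against R33. Of all genes, 8.45%, 5.87% and 1.15% stood there in the same order.

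The injected and contralateral hemispheres were compared over all treatments. None of the 34 genes was called (0% of all genes), 1 stood at an unadjusted p under 0.05, with 3.47% of all genes there, and limma voom gave 0 and 1 as well. The median log2 fold change was -0.00 over the 34 genes and 0.00 over all genes, with 17 genes above and 17 below 0. With the mouse as a block over the 13 mice that had both sides, 0 were called (0% of all genes) and 3 stood at an unadjusted p under 0.05, with 6.13% of all genes there. These 3 were Whrn, Nr4a2 and Syt6.

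Whrn had 7.26 to 14.4 FPKM (median 11.5) in the injected and 8.24 to 16.5 FPKM (median 13.6) in the contralateral libraries. It was higher on the injected side in 3 of 13 mice, and the ranges overlapped. The blocked log2 fold change was -0.17 (SE 0.0649, 95% interval -0.31 to -0.03, adjusted p = 0.693 in limma), and without the block it was -0.19 (SE 0.0869, adjusted p = 1.0). Nr4a2 had 2.95 to 20.7 FPKM (median 6.42) injected and 2.06 to 23.4 FPKM (median 8.04) contralateral, and was higher on the injected side in 2 of 13 mice. The blocked log2 fold change of Nr4a2 was -0.36 (SE 0.164, 95% interval -0.71 to -0.01, adjusted p = 0.795 in limma), and in the vehicle mice alone it was 0.06. Vehicle mice J, M and AH were lower on the injected side (10.5 against 18.8, 6.73 against 8.04 and 3.82 against 4.1 FPKM). Vehicle mouse L was higher there (6.78 against 2.06 FPKM). The 13 immediate early genes, induced by neuronal activity as Nr4a2 is, all had a lower mean on the injected side (median log2 fold change -0.09, 0 called), with summed levels of 156 to 484 FPKM injected and 134 to 615 FPKM contralateral, and their part was not tested.

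Syt6, the synaptotagmin of layer 6, leaned the other way, with 2.16 to 6.58 FPKM (median 3.17) injected and 1.27 to 4.82 FPKM (median 2.95) contralateral, higher on the injected side in 9 of 13 mice. Its blocked log2 fold change was 0.25 (SE 0.118, 95% interval 0.00 to 0.50, adjusted p = 0.811 in limma). Without the block, Otof (-0.26, adjusted p = 1.0 in limma) and Fezf2 (-0.22, adjusted p = 1.0 in limma) were among the 5 smallest unadjusted p, and Fezf2 was higher on the injected side in 2 of 13 mice. The defining genes and transporters did not pass with the block, at -0.22 for Fezf2 (95% interval -0.46 to 0.02), 0.04 for Cux2, 0.08 for Rorb, 0.03 for Bcl11b, -0.02 for Tbr1, 0.20 for Foxp2 (95% interval -0.04 to 0.44), -0.06 for Slc17a7 (95% interval -0.22 to 0.09) and 0.23 for Slc17a6 (95% interval -0.13 to 0.59). The thalamic list had a higher mean on the injected side in 6 of 6 tested genes (median log2 fold change 0.26, 0 called; sums of 20 to 113 FPKM injected and 20.3 to 39.7 FPKM contralateral), beside the high Slc17a6 of vehicle mouse J and R33 mouse O, and its part was not tested.

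**Figure D4:**
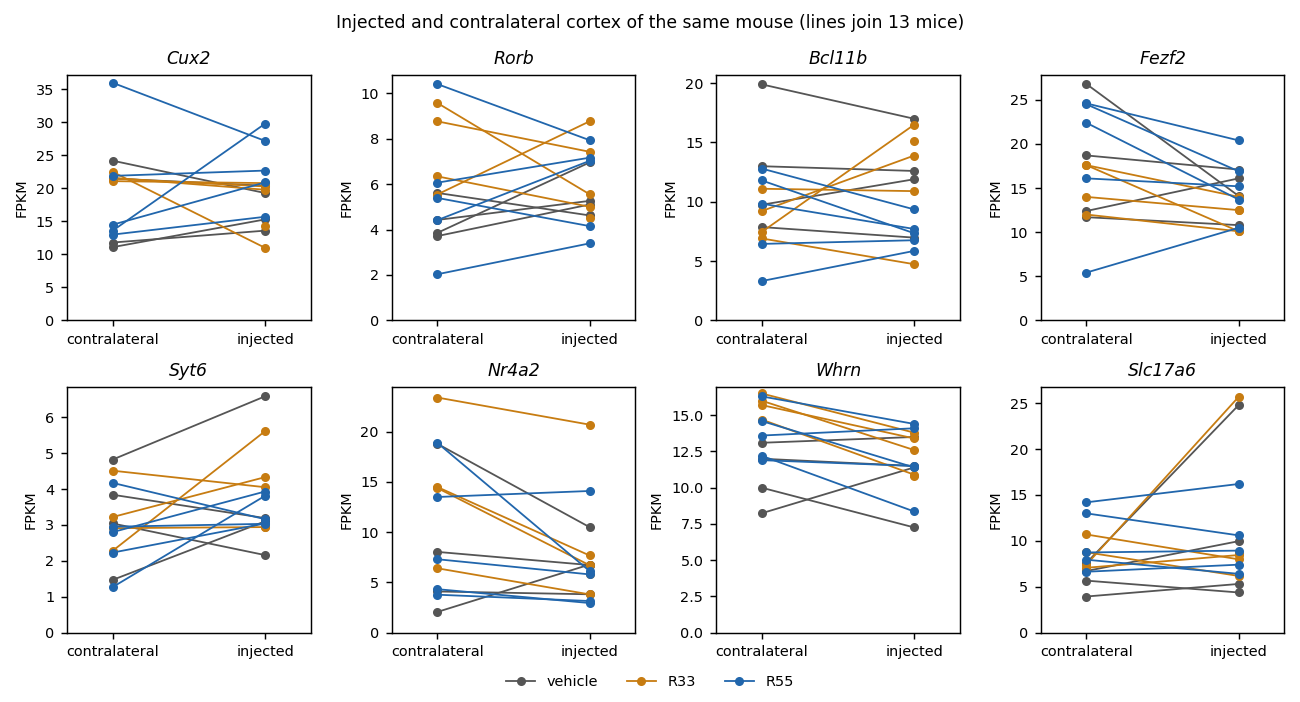
FPKM of 8 genes in the contralateral (left) and injected (right) cortex, with a line for each of the 13 mice that had both sides and colours for the treatment (the single unjoined point is R33 mouse AE). Lines run upward and downward in every panel, Whrn is higher on the injected side in 3 mice and Nr4a2 in 2, and the steep Slc17a6 lines to 24.8 and 25.7 are vehicle mouse J and R33 mouse O.

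Whether a drug's difference from vehicle was larger on the injected than on the contralateral side was tested with an interaction term. For R55, 0 of the 34 genes were called (0% of all genes) and 1 stood at an unadjusted p under 0.05, with 1.84% of all genes there, and limma voom gave the same 0 and 1. This was Scnn1a, the layer 4 channel gene. In vehicle mice J, L, M and AH it had 3.32, 2.76, 2.66 and 3.92 FPKM on the injected and 2.21, 0.691, 3.14 and 2.53 FPKM on the contralateral side. In R55 mice P, Q, R, AA and AB it had 1.68, 1.91, 2.55, 4.16 and 1.39 FPKM on the injected and 4.32, 2.53, 2.92, 5.05 and 2.84 FPKM on the contralateral side. So 5 of 5 R55 mice had less Scnn1a on the injected side and 3 of 4 vehicle mice had more. R33 mice K, O and AD also had less there (2.91 against 3.42, 2.21 against 2.22 and 2.08 against 2.55 FPKM). R33 mouse N had more (3.26 against 1.54 FPKM). The interaction was -0.94 on the log2 scale (SE 0.330, 95% interval -1.62 to -0.25, adjusted p = 0.999 in limma), and with the mouse as a block -0.94 (SE 0.265, adjusted p = 0.806). The contralateral library of vehicle mouse L held the lowest Scnn1a of all, and without that mouse the value was -0.71.

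The interaction of the other layer 4 genes was -0.14 for Rorb (95% interval -0.92 to 0.65) and -0.67 for Rspo1 (-1.78 to 0.44), and whether these differ from that of Scnn1a was not tested. Next in order of unadjusted p were Otof (0.59), Slc17a7 (0.29, 95% interval -0.10 to 0.67) and Cplx3 (-0.44). For R33, 0 of the 34 were called (0% of all genes) and 0 stood at an unadjusted p under 0.05, with 0.378% of all genes there, and limma voom gave 0 and 0. The 5 genes with the smallest unadjusted p all had negative terms, namely Rasgrf2 (-0.58, 95% interval -1.19 to 0.02), Mef2c (-0.57, -1.23 to 0.08), Plcxd2 (-0.46), Whrn (-0.33) and Tbr1 (-0.43). Over the 34 genes the median was -0.21, with 26 below 0, against -0.01 over all genes. With 1 mouse left out at a time it ran from -0.24 to -0.14. It was -0.00 without the libraries high in striatum or thalamus markers, among them the injected libraries of R33 mice N and O.

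The labels name 9 mice by 1 letter and 5 by 2 letters, with 3 mice of each treatment among the former and 1 vehicle, 2 R33 and 2 R55 mice among the latter. What the letters stand for is not given in the sources used here. Because treatments were spread over both, the difference could be fitted beside treatment and hemisphere. Here 5 of the 34 genes were called and all 5 were lower in the mice with 2 letters, with 19.1% of all genes called, so the share of these genes, 5 of 34, was near that of all genes. At an unadjusted p under 0.05 stood 9 of the 34, with 33.9% of all genes there, and limma voom called 5 and placed 9 there as well. The median log2 fold change was -0.07 over the 34 genes and -0.01 over all genes. Leaving out 1 mouse at a time gave 2 called genes without vehicle mouse AH or R33 mouse AD, 3 without R33 mouse N or R55 mouse P, AA or AB, and 8 without R55 mouse R. The share of all genes called with 1 mouse left out is not given here, so these counts show nothing particular to the 34 genes. The 5 genes called over all mice came from all but the layer 5 and general excitatory groups.

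Ntng2, the netrin-G2 gene of the deep layers and claustrum at chr2:29084553-29143017, fell by 0.32 on the log2 scale (SE 0.0742, 95% interval -0.47 to -0.17, adjusted p = 0.0054 in limma). It stood at 9.96 to 13.5 FPKM (median 11) in the 9 mice with 1 letter and at 7.40, 8.37, 8.85, 9.75 and 9.83 FPKM in R55 mice AA and AB, R33 mice AD and AE and vehicle mouse AH. The 2 sets of mice did not overlap for Ntng2, though they came as close as 9.96 FPKM in vehicle mouse L and 9.83 FPKM in vehicle mouse AH. Ntng2 was the only one of the 5 still called with 1 value per mouse (adjusted p = 0.0292 in limma). The shares of all genes that do not overlap, or are called with 1 value per mouse, are not given here. With 19.1% of all genes called between the label letters, this shows nothing particular to Ntng2. Ntng2 stayed called without any 1 mouse, and lost its call with the region lists as covariates (log2 fold change -0.26, adjusted p = 0.0742 in limma).

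Rorb fell by 0.46 on the log2 scale (SE 0.140, adjusted p = 0.0243 in limma), from 6.55 ± 1.58 FPKM (SD, n = 9 mice) to 4.55 ± 1.12 FPKM (SD, n = 5 mice), with overlap. R55 mouse AA, at 2.71 FPKM, was the lowest, and Rorb was no longer called without it (-0.30, adjusted p = 0.119 in limma) or without R55 mouse P (-0.45). Lmo3 fell by 0.45 on the log2 scale (SE 0.127, adjusted p = 0.0157 in limma), from 26.4 ± 6.75 FPKM to 19.1 ± 4.65 FPKM, again with overlap, since R33 mouse AE stood at 27.3 FPKM. Lmo3 lost its call without vehicle mouse AH, the lowest at 16 FPKM (-0.29, adjusted p = 0.160 in limma), and without R33 mouse AD (-0.38). Otof, the upper-layer otoferlin gene, fell by 0.44 on the log2 scale (SE 0.148, adjusted p = 0.0392 in limma), from 1.95 ± 0.63 FPKM to 1.03 ± 0.224 FPKM, with vehicle mouse M at 0.927 FPKM among the former. Its call was lost without any 1 of 9 mice (vehicle L and AH, R33 AD, AE, N and O, and R55 AA, AB and Q), with values of -0.46 to -0.40.

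Nr4a2, at chr2:56996842-57014331, had the largest of the 5 differences and fell by 0.86 on the log2 scale (SE 0.270, 95% interval -1.42 to -0.31, adjusted p = 0.0274 in limma). It stood at 3.64 to 22.1 FPKM (median 11.1) in the mice with 1 letter and at 3.47, 3.96, 5.11, 5.85 and 6.56 FPKM in those with 2. R55 mouse R and vehicle mouse L were as low as the latter, so the sets overlapped. With the region lists as covariates the log2 fold change was -0.25 (adjusted p = 0.478), and without the libraries high in region markers it was -0.39 (adjusted p = 0.418). The call was also lost without vehicle mouse AH, R33 mouse AD or N, or R55 mouse AB or P, with values of -0.89 to -0.74. Of the 13 immediate early genes, 5 were called and all 5 were higher in the mice with 2 letters, with summed levels of 245 to 615 FPKM against 134 to 484 FPKM, and their part was not tested.

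Besides Rorb, the layer-defining genes and the transporters did not pass this test, at -0.01 for Cux2, -0.34 for Bcl11b, 0.31 for Fezf2, 0.04 for Tbr1, -0.26 for Foxp2, 0.10 for Slc17a7 and -0.11 for Slc17a6. Of the 51 further layer and excitatory genes, 6 were called higher and 4 lower. With 19.1% of all genes called in this comparison, these counts show nothing particular to the 51 genes. The 5 called genes of the layer 5 list, Batf3, Ldb2, Osr1, Rbp4 and Tshz2, were all higher, while Calb1 and Cartpt of the upper-layer list and Thsd7a of the layer 4 list were lower. The other called genes were Dkk3, which was higher, and Neurod1, a factor also rich in hippocampus, which was lower. Genes of other cell types moved as well. Of 11 microglial genes 10 were called higher, with summed levels of 479 to 1058 FPKM (median 714) in the libraries of mice with 1 letter and 835 to 1542 FPKM (median 1067) in those with 2. Of 10 endothelial and mural genes 7 were called lower, with sums of 106 to 235 FPKM (median 159) and 99.6 to 139 FPKM (median 106). Their part in the differences of the 5 genes was not tested.

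**Figure D5:**
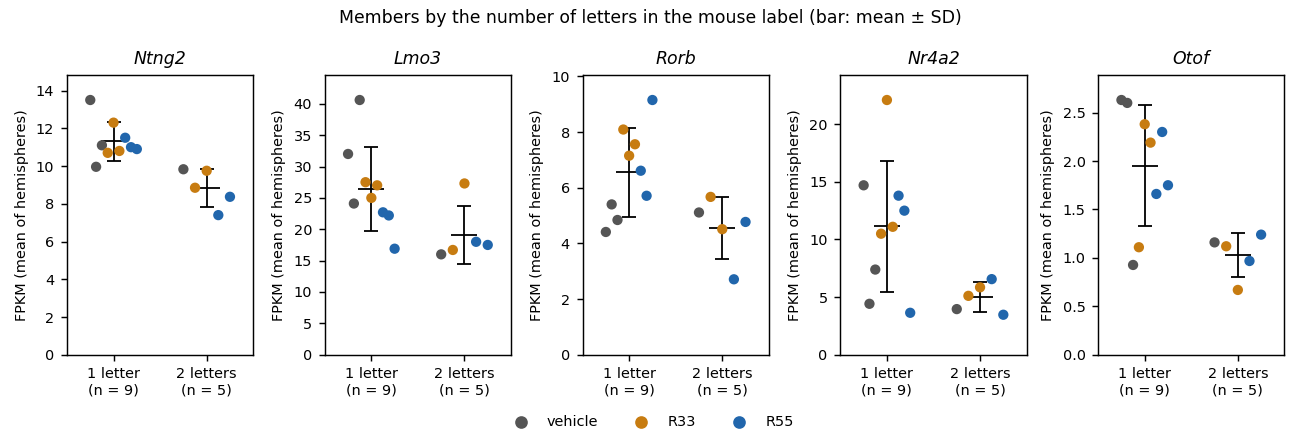
FPKM of the 5 genes called between mice with 1-letter labels (n = 9) and 2-letter labels (n = 5), 1 point per mouse coloured by treatment, with mean and SD as bars. The sets do not overlap for Ntng2 and overlap for Lmo3, Rorb, Nr4a2 and Otof. The share of all genes whose sets do not overlap is not given here.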

How the data were processed

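RNA was extracted with RNeasy, libraries were made with Illumina Stranded mRNA, sequenced on an Illumina NextSeq and aligned with HISAT2 to GRCm39 by the study. How fragments were assigned to genes, and with which annotation, is not given in the sources used here. The authors deposited 1 table of FPKM values per gene symbol, scaled per library by its counted fragments. Of its 32 libraries, 27 matched a sample label and 5 were not used. Whole fragments could be recovered from the FPKM values and gave the depth of each library.

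The authors tested counts with DESeq2. The deposited values are not counts and were tested with limma 3.58.1 (R 4.3.3, statmod 1.5.0) as log2(FPKM + 1) with an intensity trend, over the 12976 genes whose mean reached 1 FPKM, with treatment and hemisphere as terms over 27 libraries. P-values were two-sided and adjusted by the Benjamini-Hochberg method over all genes, with a threshold of 0.05. The fold changes are on the log2(FPKM + 1) scale, which understates those of low genes. The script was tested on simulated data. There each library was drawn independently, so that test does not cover the correlation between hemispheres of 1 mouse. Libraries of the same mouse were paired by the mouse letters of the labels, and deviations of the 13 pairs from their group means correlated by 0.394 on average (-0.0787 to 0.648). The fits without a mouse term count the hemispheres of 1 mouse as separate, so fits with 1 value per mouse, with the mouse as a block and with a modelled correlation within mice (0.347) were run beside them.

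The genes named with full values in a comparison were those with an adjusted p under 0.05 or, with none, the 5 with the smallest unadjusted p, besides Cux2, Rorb, Bcl11b, Fezf2, Tbr1, Foxp2, Slc17a7 and Slc17a6. The 34 genes and all lists were chosen with earlier results of these data known. Alternatives covered the pseudocount (0.1), the filter (none, or 5 FPKM), scaling, gene length, hemispheres, label letters and each mouse left out, and after seeing the data limma voom on the recovered fragments region covariates, region-high libraries left out and mice with 2-letter labels alone were added. Scripts used Python 3.11.15 with pandas 2.3.3 and matplotlib 3.10.9 for summaries and plots.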

Additional observations from a re-analysis of the deposited data

Results flagged for a closer look

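Of 102 groups of mice (34 genes in 3 treatments), 4 held a mouse far from the rest by Dixon's test, whose chance rate is about 1 in 20 groups. The upper-layer gene Cux1 stood at 12.7 FPKM in R55 mouse R, with the next R55 mouse at 8.72 FPKM. Slc17a6, the gene of VGLUT2, stood at 16.5 FPKM in R33 mouse O, with the next at 9.35 FPKM. Ntng1, the thalamus-rich netrin-G1 gene, stood at 9.77 FPKM in vehicle mouse J and at 3.82 FPKM in the next. Lmo3 stood at 16.7 FPKM in R33 mouse AD, below the next R33 mouse at 25 FPKM. Mouse R is the one whose contralateral library was high in upper-layer genes. The injected libraries of mice O and J were high by the mean of the thalamic list. In O only part of that list was raised, with Lef1 at 7.24 FPKM and Tcf7l2 at 4.12 FPKM. Prkcd of the same list stood at 5.4 FPKM in O and 31.1 FPKM in J. Whether the block of O held thalamic tissue was not tested.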

How the results depend on the processing

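None of the 34 genes was called for R55 or R33 against vehicle, R55 against R33, the hemispheres or either interaction under any of 31, 31, 32, 29, 26 and 26 alternatives, and the smallest adjusted p (limma) in them were 0.152, 0.123, 0.436, 0.588, 0.764 and 0.351. The mouse as a replicate block, which pairs the hemispheres, changed no call. Between label letters, 5 genes were called, but 2 with the correlation within mice modelled, 1 with 1 value per mouse, 3 in the injected hemisphere alone, 0 in the contralateral hemisphere alone (2 at an unadjusted p under 0.05, with 83 of all genes called), 3 with region lists as covariates, 2 without libraries high in region markers, 2 without those high in striatum or thalamus markers, and 2 to 8 with 1 mouse left out. Apart from the contralateral fit, the share of all genes called in these label-letter alternatives is not given here. Fewer calls there therefore show nothing particular to the 34 genes. edgeR and DESeq2 on recovered fragments were not run. With 4 or 5 mice a group and a wide spread between libraries, the smallest change that could have been called was not worked out. An unadjusted 95% interval that leaves out 0 was not enough for a call. Bcl11b for R55, at -0.55 (95% interval -1.02 to -0.09), had an adjusted p of 0.557 in limma. Depth was not the limit for most of these genes. The cause of the changes below was not tested.

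The median log2 fold change over the 34 genes for R55 against vehicle was -0.16 without libraries high in region markers. For label letters it was 0.06 in the contralateral hemisphere alone. For the R55 interaction it was 0.27 without libraries high in region markers and 0.16 without those high in striatum or thalamus markers, and for the R33 interaction -0.02 and -0.00 in the same order. Without libraries high in region markers, the injected vehicle and R33 arms hold 1 library each and the vehicle arm 2 mice, so interaction values from that fit, here and below, assume that a lone library varies like the other groups and show nothing about stability.

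These single genes changed sign, and none of them was called in either fit. With 1 value per mouse, R33 against vehicle gave -0.02 for Tbr1, and with size factors -0.01. With the length trend removed, R55 against vehicle gave -0.02 for Fezf2 and label letters 0.04 for Cux2. With label letters as a covariate, Fezf2 was -0.01 for R55. In mice with 1-letter labels, Fezf2 was -0.05 for R55 and Slc17a6 -0.02 for R55 against R33. In mice with 2-letter labels, R55 against R33 gave -0.06 for Cux2 and -0.09 for Slc17a7. In the contralateral hemisphere alone, R55 against R33 gave -0.23 for Cux2, -0.11 for Tbr1 and -0.11 for Slc17a7, and label letters 0.12 for Cux2 and 0.13 for Slc17a6. In the injected hemisphere alone, Slc17a7 was 0.09 for R55, Cux2 -0.01 and Tbr1 -0.19 for R33, and Slc17a6 -0.07 for R55 against R33. In vehicle mice alone, with or without the replicate block, the hemispheres gave 0.06 for Nr4a2, -0.04 for Bcl11b and 0.12 for Tbr1.

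With region lists as covariates, Tbr1 was -0.07 for R33, the hemispheres gave -0.01 for Rorb and -0.04 for Slc17a6, and label letters -0.04 for Tbr1 and 0.29 for Slc17a6. The R55 interaction then gave -0.07 for Cux2, 0.51 for Bcl11b and 0.06 for Foxp2, and the R33 interaction 0.03 for Foxp2. Without libraries high in region markers, R55 gave 0.03 for Lmo3, -0.67 for Fezf2 and -0.16 for Tbr1, R33 gave -0.04 for Cux2 and -0.14 for Tbr1, and R55 against R33 gave -0.03 for Lmo4, -0.26 for Fezf2, -0.02 for Tbr1 and -0.08 for Slc17a6. The hemispheres then gave 0.19 for Fezf2, -0.21 for Cux2, -0.34 for Rorb and -0.05 for Bcl11b, and label letters -0.15 for Tbr1, -0.02 for Slc17a7 and 0.13 for Slc17a6. The R55 interaction gave -0.04 for Cux2, 0.77 for Bcl11b, 0.26 for Tbr1 and 0.51 for Foxp2, and the R33 interaction 0.16 for Tbr1, 0.14 for Cux2, -0.44 for Bcl11b, 0.27 for Fezf2, 0.16 for Foxp2 and 0.20 for Slc17a7. Without libraries high in striatum or thalamus markers, R55 gave -0.05 for Fezf2, R55 against R33 -0.02 for Tbr1 and -0.03 for Slc17a7, and the hemispheres -0.01 for Cux2, -0.06 for Rorb, -0.05 for Foxp2, 0.02 for Slc17a7 and -0.02 for Slc17a6. Label letters then gave -0.03 for Tbr1 and 0.24 for Slc17a6, the R55 interaction 0.02 for Rorb, 0.02 for Bcl11b, 0.37 for Tbr1 and 0.51 for Foxp2, and the R33 interaction 0.04 for Tbr1, 0.18 for Fezf2, 0.20 for Foxp2 and 0.10 for Slc17a7.

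With 1 mouse left out at a time, values that changed sign ran as follows. For R55 against vehicle they ran from -0.10 to 0.28 for Fezf2, -0.04 to 0.32 for Rorb, -0.12 to 0.01 for Slc17a7 and -0.04 to 0.28 for Tbr1, and for R33 from -0.14 to 0.18 for Tbr1. For R55 against R33 they ran from -0.03 to 0.23 for Cux2, -0.09 to 0.22 for Slc17a6, -0.01 to 0.12 for Slc17a7 and -0.01 to 0.16 for Tbr1. For the hemispheres they ran from -0.01 to 0.12 for Bcl11b, -0.07 to 0.09 for Cux2, -0.01 to 0.11 for Rorb, -0.07 to 0.00 for Slc17a7 and -0.09 to 0.05 for Tbr1. For label letters they ran from -0.19 to 0.13 for Cux2 and -0.04 to 0.10 for Tbr1. For the R55 interaction they ran from -0.28 to 0.04 for Bcl11b, -0.19 to 0.24 for Fezf2, -0.32 to 0.17 for Foxp2, -0.30 to 0.01 for Rorb and -0.15 to 0.10 for Tbr1. For the R33 interaction they ran from -0.38 to 0.03 for Fezf2, -0.37 to 0.11 for Foxp2, -0.69 to 0.04 for Slc17a6 and -0.12 to 0.08 for Slc17a7.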
